A study of Mus musculus with 6 samples.

Results

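The Zfp genes of the mouse encode zinc finger proteins, most of them DNA-binding regulators with tandem Cys2-His2 fingers. Genes were taken as members when the array annotation gave a probe set the single symbol Zfp followed by a number and the mean signal of its brightest probe set over the 6 arrays reached a threshold. Zfp36 and its relatives, which bind mRNA and promote its decay, were left out. The rule gave 261 members of 328 Zfp genes that had a probe set of their own, within 11500 of 18193 genes that reached the same signal. The members were thus chosen by their mean signal, which is given as a description only: Zfp688, Zfp493 and Zfp759 lay just inside the threshold at 157.1, 159.4 and 160.0, and Zfp189, Zfp58 and Zfp991 lay just outside it at 152.3, 147.0 and 146.2.

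Expression had been measured in LβT2 cells, a mouse pituitary line of gonadotrope type from a tumour in which a gonadotropin beta subunit promoter drove SV40 large T antigen. All 6 cultures were kept for 16 h without serum. The treated cultures then received recombinant human activin A at 30 ng/ml for 1, 2 or 6 h, and the others received vehicle, a salt and Tris buffer, for the same times. Each of the 6 combinations was measured on 1 array, so no single time has a replicate, and precision is limited by how few arrays there are.

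Many Zfp proteins carry a KRAB box, which recruits the co-repressor TRIM28 and, through it, the histone methyltransferase SETDB1 and HP1 proteins to silence retrotransposons and some genes. Their genes have multiplied by tandem duplication and lie in clusters. Transcripts of such regulators tend to be short-lived, so levels can move within hours, and the ratio of activin over vehicle at 1 h was set beside that at 6 h.

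The trimmed mean signal was the same on every array, and the median lay between 151.0 and 166.4. Of 7 gonadotrope markers all 7 passed the signal threshold, with median log2 ratios of activin over vehicle of 0.02, 0.27 and 0.38 at 1, 2 and 6 h. At 6 h 5 of them had a ratio above 0, the widest being Lhb at 1.09, while Cga and Nr5a1 had -0.10 and -0.11. Of 7 markers of other pituitary cells only Pomc and Tshb passed, and 5 of 7 markers of fibroblast, endothelium and blood did. Among these the endothelial marker Pecam1 had ratios of 0.41, 0.73 and 1.03, whereas the endothelial marker Cdh5 had -0.04, -0.12 and 0.03. The macrophage markers Csf1r and Adgre1 had mean ratios of -0.37 and -0.41. For Pecam1, Csf1r and Adgre1 the limma adjusted p was 0.377, 0.432 and 0.377. Col1a2 averaged 0.03, and Col1a1 and Ptprc were under the threshold. Whether such cells were present, and their part in the Zfp ratios, was not tested. The array of activin at 1 h stood apart in the control probe set for the 5′ end of 18S ribosomal RNA, which read 12201.8 there, against 610.1 on the vehicle array of that time. The later activin arrays read 1171.1 and 248.0, against 642.8 and 190.3 on the vehicle arrays of 2 and 6 h. Its part in the ratios at 1 h was not tested. Signals come from whole cultures, in which fewer cells of a kind and less RNA per cell cannot be told apart.

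Promoter sequences of 6 members are shown because their genes carry the results that follow. Zfp944 read higher and Zfp740 lower with activin at each time, and Zfp54, Zfp937 and Zfp60 read higher at 6 h than at 1 h in both treatments. Zfp692 holds the core bound by ZFP143, itself a zinc finger protein. Zfp60 and Zfp692 were picked after their values were seen. Each line gives the 250 bases before the most upstream gene start listed, from RefSeq on build GRCm38.p6, 5′ to 3′ on the strand of the gene. Capitals mark matches on either strand to CAGAC, the Smad box, to GGCGCC, a GC-rich Smad element, to CCGGAA, a core of ETS sites, or to the ZFP143 core, the long run of capitals in Zfp692.
Zfp944, chr17:22361401-22361650, minus strand: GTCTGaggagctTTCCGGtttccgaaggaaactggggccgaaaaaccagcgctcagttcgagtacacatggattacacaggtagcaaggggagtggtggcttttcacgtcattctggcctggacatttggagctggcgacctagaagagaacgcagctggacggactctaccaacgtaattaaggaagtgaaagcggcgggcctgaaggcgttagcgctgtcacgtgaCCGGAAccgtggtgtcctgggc
Zfp740, chr15:102203750-102203999, plus strand: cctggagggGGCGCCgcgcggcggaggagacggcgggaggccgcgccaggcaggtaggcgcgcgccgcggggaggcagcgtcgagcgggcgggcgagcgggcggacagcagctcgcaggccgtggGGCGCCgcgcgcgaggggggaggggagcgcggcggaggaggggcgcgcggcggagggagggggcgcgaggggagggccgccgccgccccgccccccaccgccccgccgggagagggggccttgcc
Zfp54, chr17:21422977-21423226, plus strand: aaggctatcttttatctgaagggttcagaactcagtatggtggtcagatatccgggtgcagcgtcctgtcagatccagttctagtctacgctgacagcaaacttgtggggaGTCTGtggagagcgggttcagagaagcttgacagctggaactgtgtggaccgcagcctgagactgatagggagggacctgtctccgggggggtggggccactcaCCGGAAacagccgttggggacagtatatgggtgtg
Zfp937, chr2:150217849-150218098, plus strand: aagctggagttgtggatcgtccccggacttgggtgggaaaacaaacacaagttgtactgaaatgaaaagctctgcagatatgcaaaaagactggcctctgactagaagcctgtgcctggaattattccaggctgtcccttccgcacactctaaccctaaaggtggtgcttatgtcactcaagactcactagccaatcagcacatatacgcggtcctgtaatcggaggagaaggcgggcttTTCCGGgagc
Zfp60, chr7:27731159-27731408, plus strand: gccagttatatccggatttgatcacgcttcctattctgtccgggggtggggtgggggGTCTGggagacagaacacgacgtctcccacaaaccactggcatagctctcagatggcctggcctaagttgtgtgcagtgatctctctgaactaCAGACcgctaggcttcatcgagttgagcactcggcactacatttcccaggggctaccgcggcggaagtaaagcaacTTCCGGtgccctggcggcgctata
Zfp692, chr11:58306819-58307068, plus strand: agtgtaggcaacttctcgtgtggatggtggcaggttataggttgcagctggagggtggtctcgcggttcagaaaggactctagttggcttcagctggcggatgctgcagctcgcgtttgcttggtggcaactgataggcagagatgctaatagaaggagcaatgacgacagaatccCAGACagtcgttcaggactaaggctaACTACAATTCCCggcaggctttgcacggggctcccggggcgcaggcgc

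Of the 261 members, 216 had such a window, and the same letters were looked for in the windows of 27025 genes. In this paragraph all genes means these 27025, which were not filtered by signal. The members had passed the signal threshold, so the shares compare sets that also differ in expression. The letters CCGGAA stood in the windows of 72 members, 33.3%, against 13.6% of all genes. The ZFP143 core stood in 6 members, 2.78%, against 0.285% of all genes: Zfp1, Zfp128, Zfp180, Zfp454, Zfp692 and Zfp93. CAGAC was found in 49.5% of members and 45.8% of all genes, and GGCGCC in 15.7% and 10.8%. Windows of the members were richer in G and C, with a median of 56.0% against 52.4% over all windows. Of the 7 motifs searched, the longer palindrome GTCTAGAC stood in 0.463% of members and 0.2% of genes, and a core of sites for the factor YY1 in 0.926% and 0.359%. A CG-rich palindrome stood in 0 of 216 members and in 0.448% of genes. These shares describe letters in a window and show neither binding nor a site in use.

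The median ratio of activin over vehicle was close in members with and without the Smad box. Members with CAGAC had median log2 ratios of -0.09, -0.09 and -0.01 at 1, 2 and 6 h, against -0.07, -0.08 and -0.01 in the 109 without it. Members with CCGGAA had -0.07, -0.09 and 0.02, against -0.08, -0.09 and -0.01 in the 144 without it. The 6 members with the ZFP143 core had 0.09, -0.18 and -0.24, against -0.08, -0.08 and -0.01 in the other 210, and their single ratios at 1 h ran between -0.68 for Zfp454 and 0.71 for Zfp1. No test was made between these classes.

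Differences between activin and vehicle were small for most Zfp genes, and the SD of their ratios was close to that of all genes. The median log2 ratio of the members was -0.07 at 1 h, -0.08 at 2 h and -0.01 at 6 h, against -0.04, -0.03 and -0.03 over all 11500 genes. The SD of the ratios over members was 0.33, 0.30 and 0.33 at the 3 times, and over all genes 0.31, 0.31 and 0.34. The quartiles of the members lay further apart at 1 and 2 h. They were -0.258 and 0.125 at 1 h, against -0.201 and 0.108 over all genes. At 2 h they were -0.227 and 0.109, against -0.169 and 0.103, and at 6 h -0.173 and 0.150, against -0.184 and 0.135. At 1 h 150 members had a ratio under 0, 57.5% against 57.6% of all genes. At 2 h 164 did, 62.8% against 55.7%, and at 6 h 138 did, 52.9% against 54.4%.

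**Figure D1:**
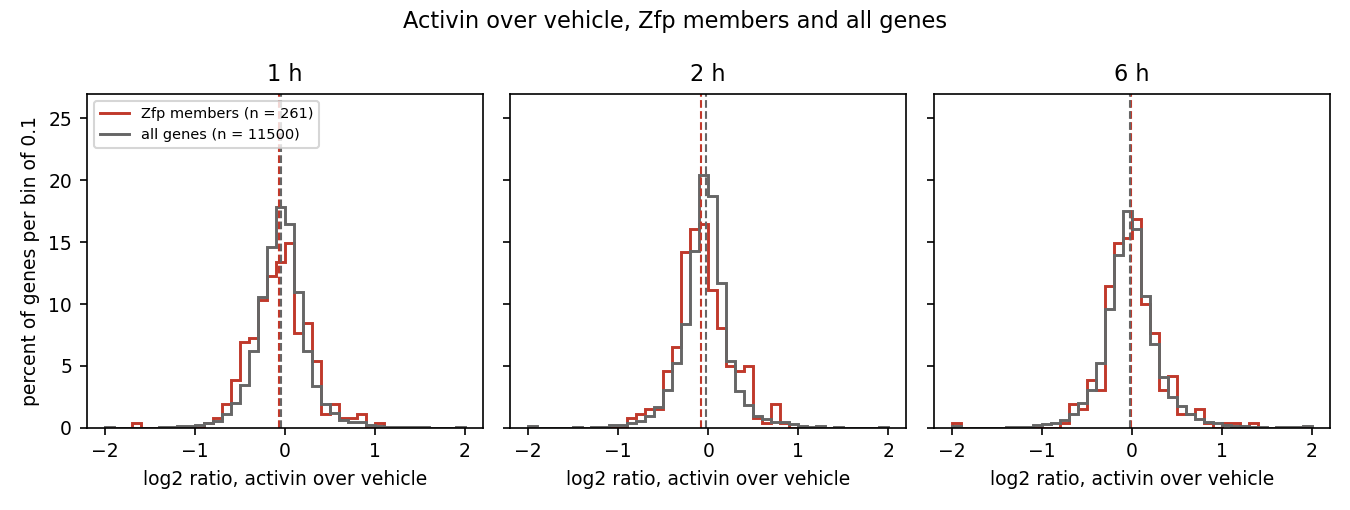
Percent of genes per bin of the log2 ratio of activin over vehicle at 1, 2 and 6 h, for the 261 Zfp members (red) and all 11500 genes (grey); dashed lines are medians, and ratios past 2 either way are drawn in the end bins. Both outlines peak near 0, with member medians of -0.07, -0.08 and -0.01 against -0.04, -0.03 and -0.03 over all genes; at 2 h the members' outline is above that of all genes between -0.3 and -0.1 and below it between -0.1 and 0.2.

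Members at least 1.5-fold apart numbered 9 higher and 9 lower with activin at 1 h, beside 2.5% higher and 3.05% lower over all genes. The 9 and 9 members were 3.45% each. At 2 h 7 members were higher, 2.68% beside 2.77% of all genes, and 10 were lower, 3.83% beside 2.92%. At 6 h 11 were higher, 4.21% beside 3.9%, and 7 lower, 2.68% beside 3.31%. The split between higher and lower at the early times depended on how arrays were scaled, in members and in all genes alike. At 1 h 8 members were higher and 13 lower after quantile normalization, 3.07% and 4.98% beside 2.49% and 3.19% of all genes. After centring each array on its median 7 were higher and 15 lower, 2.68% and 5.75% beside 2.1% and 4.17%. At 2 h 8 were higher and 5 lower after quantile normalization, 3.07% and 1.92% beside 2.92% and 2.15%, and after centring 9 were higher and 5 lower, 3.45% and 1.92% beside 3.57% and 1.96%.

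Taken over the 3 times, limma called 0 members at an adjusted p under 0.05, and 0.0% of all genes; the smallest adjusted p was 0.377 among members and 0.374 among all genes. In that fit time was a block and the 3 pairs of arrays gave the error. At an unadjusted p under 0.05, 14 members were higher with activin, 5.36% beside 4.14% of all genes, and 22 were lower, 8.43% beside 6.23%. Without the arrays of 1 h 15 were higher and 8 lower, 5.75% and 3.07% beside 4.53% and 4.45% of all genes. Without those of 2 h 8 were higher and 11 lower, 3.07% and 4.21% beside 3.15% and 4.37%, and without those of 6 h 16 were higher and 20 lower, 6.13% and 7.66% beside 3.04% and 4.12%. A ratio above 0 at all 3 times was found in 32 members, 12.3% beside 12.1% of all genes. A ratio under 0 at all 3 times was found in 65, 24.9% beside 22.1%. The shares with 1 sign at all 3 times lay near those of all genes.

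A few members moved the same way at every time. At least 1.2-fold higher with activin at all 3 times were 5 members, Zfp251, Zfp41, Zfp599, Zfp647 and Zfp944, 1.92% beside 1.27% of all genes. At least 1.2-fold lower at all 3 times were 3 members, Zfp740, Zfp87 and Zfp950, 1.15% beside 1.27%. Zfp950 reached the signal threshold through its vehicle arrays, so its direction is tied to how it was chosen. None of the 8 passed the adjusted test, and they are given as values.

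Zfp251 read 1275.3, 1552.8 and 1065.3 in activin cultures at 1, 2 and 6 h, against 891.9, 920.6 and 720.3 in vehicle cultures. Every activin signal of Zfp251 lay above every vehicle signal. Such non-overlap, here and below, is a description only. Most of these genes were picked by their mean ratios, and its share over all genes was not counted. Its mean log2 ratio was 0.61 ± 0.09 (moderated SE, 3 pairs of arrays), with a limma adjusted p of 0.377. Zfp41 read 1868.2, 3038.0 and 2409.3 in activin cultures, against 1494.3, 1859.6 and 1582.9 in vehicle cultures. Here too the treatments did not overlap, though only narrowly at 1 h, and the mean log2 ratio was 0.55 ± 0.11 (limma adjusted p = 0.377). The authors' deposited table lists Zfp41 with fold changes of 1.38, 1.46 and 1.41 at 1, 2 and 6 h, whereas the signals give 1.25, 1.63 and 1.52. That table is titled as 1.2-fold at all 3 times, and its headers also require a signal difference, so it holds only part of the genes. No other member was found in it. The other members named above as at least 1.2-fold apart at all 3 times were thus not listed there by the authors. Which requirement left them out was not tested. Any other deposited fold change table was not searched.

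Zfp944 read 406.0, 374.3 and 490.3 in activin cultures, against 311.1, 294.5 and 333.0 in vehicle cultures. The groups did not overlap and the mean log2 ratio was 0.43 ± 0.09 (limma adjusted p = 0.385). Its other probe sets did not follow: one of mean signal 298.0 had log2 ratios of 0.74, 0.01 and -0.23, and one of mean signal 164.6 had 0.02, -0.14 and -0.12. Zfp62 read 703.6, 635.1 and 688.2 in activin cultures, against 485.9, 539.2 and 501.4 in vehicle cultures, again without overlap (mean log2 ratio 0.41 ± 0.10, limma adjusted p = 0.432). Its dimmer probe set had ratios of 0.36, 0.05 and 0.13, all above 0.

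Zfp647 read 1212.5, 1396.0 and 1116.2 in activin cultures, against 1003.5, 1041.0 and 915.7 in vehicle cultures, a mean log2 ratio of 0.33 ± 0.09 (limma adjusted p = 0.432). All its activin signals lay above all its vehicle signals. Zfp438 read 291.3, 423.3 and 420.7 in activin cultures, against 264.4, 302.8 and 310.4 in vehicle cultures. The activin signal at 1 h lay within the range of the vehicle signals, and the mean log2 ratio was 0.35 ± 0.11 (limma adjusted p = 0.447). Zfp946 read 2077.2, 2372.7 and 3316.3 in activin cultures, against 1974.0, 2094.1 and 1986.9 in vehicle cultures, so most of its difference came from 6 h. Zfp599 was also higher at each time, at 278.4, 272.1 and 229.0 with activin, against 178.6, 200.0 and 136.6 with vehicle, but its vehicle signal at 6 h lay under the threshold.

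Zfp740 had the lowest mean ratio among the 232 members whose 6 signals all reached the threshold. It read 499.5, 397.6 and 384.8 in activin cultures, against 614.6, 648.7 and 589.9 in vehicle cultures. Every activin signal was below every vehicle signal, and the mean log2 ratio was -0.54 ± 0.11 (limma adjusted p = 0.385). Zfp87 read 232.2, 307.5 and 309.4 in activin cultures, against 362.7, 438.7 and 418.0 in vehicle cultures, without overlap (mean log2 ratio -0.53 ± 0.09, limma adjusted p = 0.377). In both treatments its signal at 1 h was the lowest of the 3.

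Zfp105 read 369.0, 396.0 and 333.8 in activin cultures, against 516.6, 429.7 and 457.6 in vehicle cultures, and Zfp472 read 726.3, 649.4 and 825.9 in activin cultures, against 965.9, 904.0 and 891.4 in vehicle cultures. In both genes all activin signals were the lower ones; the mean log2 ratios were -0.35 ± 0.11 and -0.33 ± 0.11, with limma adjusted p of 0.453 and 0.454. Zfp105 was read by a probe set of the kind that can detect several related transcripts. Zfp263, a protein with both a SCAN and a KRAB domain, had log2 ratios of -0.88, -0.35 and -0.04, from 445.9, 605.2 and 650.3 in activin cultures, against 820.1, 772.1 and 669.7 in vehicle cultures. Its second probe set had ratios of -0.37, -0.35 and 0.10.

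The remaining members of the lower group were less even over the probe sets or times. Zfp267 had ratios of -0.42, -0.05 and -0.63, and a second probe set had -0.08, -0.18 and 0.19. Zfp975 had ratios of -0.60, -0.59 and 0.14, from a probe set that can cross-hybridise, and a second probe set stayed at 0.00, -0.02 and -0.07. Zfp950 was lower at each time, at 152.7, 129.3 and 170.9 with activin, against 223.3, 198.4 and 276.2 with vehicle. Its mean log2 ratio was -0.62 ± 0.09 (limma adjusted p = 0.377). Its activin signals at 1 and 2 h lay under the threshold. Zfp950 became a member through its vehicle signals, so its ratios are a description only. With signals under the threshold raised to it, its fold at 6 h was 0.619.

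**Figure D2:**
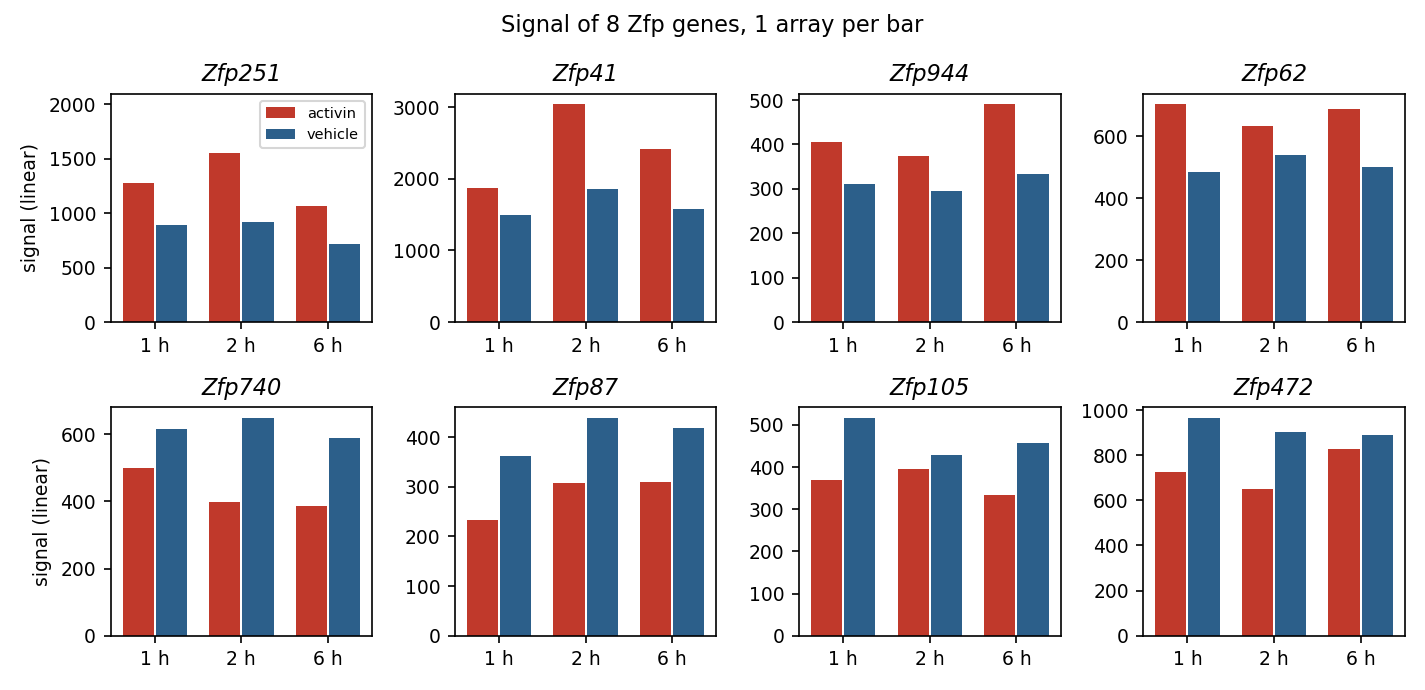
Linear signal of 8 Zfp genes at 1, 2 and 6 h, 1 array per bar, with activin (red) left of vehicle (blue). In the upper row Zfp251, Zfp41, Zfp944 and Zfp62 stand above vehicle at each time, and in the lower row Zfp740, Zfp87, Zfp105 and Zfp472 stand below it.

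At 1 h against 6 h, single members differed, and so did other genes. The log2 ratio at 1 h minus that at 6 h had an SD of 0.425 in members and in all genes alike. Its quartiles were -0.301 and 0.186 in members, against -0.229 and 0.183 over all genes. The ratio at 1 h exceeded that at 6 h by at least 1.5-fold in 15 members, 5.75% beside 5.08% of all genes. It fell short by at least 1.5-fold in 26 members, 9.96% beside 7.41%. The median over members of the ratio at 1 h minus the ratio at 6 h was -0.04 on the log2 scale, against -0.02 over all genes. At least 1.2-fold higher at 1 h and lower at 6 h were 6 members, 2.3% beside 1.63%. The opposite order was found in 10 members, 3.83% beside 2.43%. At 1.5-fold in both, opposite directions were found in 1 member, Zfp775, 0.383% beside 0.383%, and its signals at 1 h were under the threshold in both treatments. A difference between 2 ratios rests on 4 arrays with no error of its own, so it was not tested.

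Zfp959 had the widest gap among members with all 6 signals at or above the threshold. It read 243.4, 216.5 and 482.2 in activin cultures at 1, 2 and 6 h, against 314.2, 294.2 and 222.5 in vehicle cultures. Activin was therefore the lower at 1 and 2 h and the higher at 6 h, and the log2 ratios were -0.37, -0.44 and 1.12. Zfp760 read 437.4, 459.1 and 691.7 in activin cultures, against 639.4, 403.6 and 413.3 in vehicle cultures (ratios -0.55, 0.19 and 0.74). Both the activin signal at 6 h and the vehicle signal at 1 h stood above the rest of its signals.

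Zfp637 read 448.0, 671.6 and 709.9 in activin cultures, against 726.6, 644.7 and 553.1 in vehicle cultures, so the treatments ran in opposite directions over time. Zfp365 read 513.8, 635.8 and 698.9 in activin cultures, against 891.0, 932.9 and 586.1 in vehicle cultures. Its activin signal was the lower at 1 and 2 h only. Zfp652, whose human counterpart is a transcriptional repressor, had ratios of -0.40, 0.18 and 0.62, but its dimmer probe set had 0.83, 0.80 and -1.10, the opposite order.

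Fewer members were higher early and lower late than the reverse, as among all genes. Zfp710 read 663.9, 629.6 and 413.3 in activin cultures, against 386.0, 517.4 and 503.9 in vehicle cultures. Zfp92 read 344.8, 242.8 and 251.5 in activin cultures, against 270.5, 274.6 and 420.3 in vehicle cultures. In Zfp710 the log2 ratio was 0.78 at 1 h and -0.29 at 6 h, and in Zfp92 0.35 at 1 h and -0.74 at 6 h. Zfp655 had ratios of 0.52, -0.06 and -0.23, while its other probe sets had -0.03 and -0.26 at 1 h. Zfp516, an activator of the brown fat gene program, had 0.36, -0.12 and -0.36, and a dimmer probe set had 0.18, 0.73 and -0.16. Zfp712 had 0.87 at 1 h and 0.05 at 6 h, from a probe set of the kind that can cross-hybridise.

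**Figure D3:**
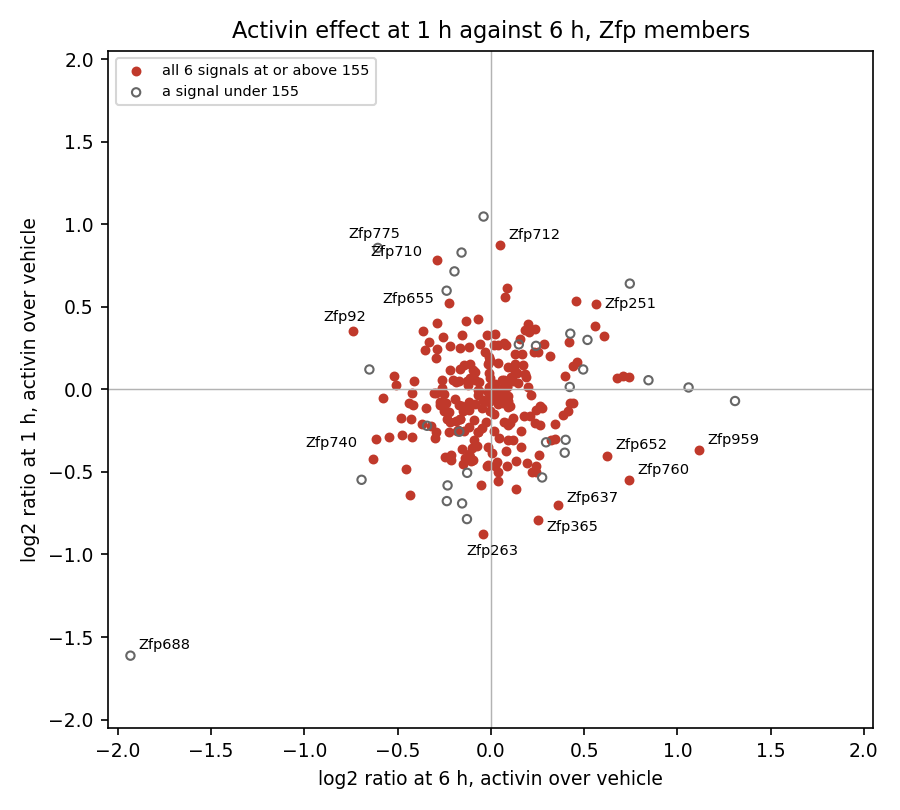
Log2 ratio of activin over vehicle at 1 h (vertical) against 6 h (horizontal), 1 point per Zfp member; red points had all 6 signals at or above the threshold and open points had at least 1 below. The cloud has no clear slope, and Zfp959 and Zfp760 lie low at 1 h and high at 6 h.

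Across the 261 members the ratios at 1 and 6 h had a Pearson r of 0.16 and a Spearman rho of 0.09, and over all genes both were 0.15. For 1 and 2 h r was 0.24 and rho 0.22 in members, against 0.11 and 0.13 over all genes. For 2 and 6 h r was 0.06 and rho 0.14, against 0.20 and 0.17. In the 232 members with all signals at or above the threshold r was 0.25, 0.04 and 0.20 for these pairs of times (1 and 2 h, 1 and 6 h, 2 and 6 h). These values run across genes of the same arrays, which are not independent.

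Some members stood out at a single time only. At 1 h the signal of Zfp280b was 946.2 in the activin culture and 619.1 in the vehicle culture (log2 ratio 0.61), while its ratios at 2 and 6 h were 0.14 and 0.08. At 2 h Zfp777 stood at 796.8 in the activin culture and 450.8 in the vehicle culture, a ratio of 0.82, beside 0.24 at 1 h and -0.29 at 6 h. At the same time Zfp672 stood at 723.7 in the activin culture and 442.4 in the vehicle culture, a ratio of 0.71, beside 0.12 and -0.22. Zfp30 was lower at 2 h, with 447.4 in the activin culture and 729.3 in the vehicle culture. Each of these single values has no replicate.

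The later time singled out Zfp958, at 414.2 in the activin culture and 258.9 in the vehicle culture of 6 h (ratio 0.68), and at 1 and 2 h its ratios were 0.07 and 0.02. Zfp113 was the lower there, at 215.3 in the activin culture and 321.6 in the vehicle culture, a ratio of -0.58, beside -0.05 and -0.08. Zfp358 had -0.54 at 6 h, beside -0.29 and 0.12. Zfp352, a gene of the cleavage-stage embryo, had 0.56 at 1 h and -0.41 at 2 h.

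A signal under the threshold on at least 1 array was found in 29 members, which are given apart because a dim signal makes a ratio uncertain. Zfp626 read 363.6, 247.2 and 162.9 in activin cultures, against 176.1, 142.7 and 167.4 in vehicle cultures, so its difference was at 1 and 2 h. With dim signals raised to the threshold its fold at 1 h was 2.065. Zfp846 and Zfp324 were higher with activin at 6 h by 1.803-fold and 1.952-fold on that floor, and their vehicle signals at 6 h were 112.8 and 145.1. A second probe set of Zfp846 had a ratio of -0.04 at 6 h. Zfp446 and Zfp469 were at 0.623-fold and 0.661-fold of vehicle at 1 h on the same floor. Zfp688, the dimmest member, read 70.8, 224.4 and 55.2 with activin, against 216.6, 165.0 and 210.7 with vehicle. Its log2 ratios of -1.61 at 1 h and -1.93 at 6 h were the lowest of all members. At those times only its vehicle signals reached the threshold, so its direction there is tied to how it was chosen. It is part of the counts and correlations over all 261 members.

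Probe sets gave a measure of how far single ratios can be read. Of the 84 members with more than 1 probe set past the threshold, 43 had the same sign in all of them at 1 h, 51.2% beside 42.7% of the 5062 such genes. At 2 h 39 did, 46.4% beside 46.5%, and at 6 h 33, 39.3% beside 47.6%. For the mean of the 3 ratios it was 48 members, 57.1% beside 48.3%. Of the 261 chosen probe sets, 228 were of the kind designed for 1 transcript, 11 for variants of 1 gene, and 13 and 9 of the kinds that can detect related sequences. Zfp genes are close paralogs, so signals of the last kinds may be shared.

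The members' median was higher at 6 h than at 1 h in both treatments. In the limma fit over both treatments the median log2 difference of 6 h minus 1 h was 0.08 in members, against 0.00 over all genes. Within activin cultures it was 0.08, against 0.01 over all genes, and within vehicle cultures 0.05, against -0.01. Members higher at 6 h than at 1 h in both treatments numbered 98, 37.5% beside 28.3% of all genes. Members lower in both numbered 59, 22.6% beside 28.4%. These pairs of arrays are separate, and across members the difference with activin and that with vehicle had an r of 0.18 and a rho of 0.16, against 0.15 and 0.19 over all genes.

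For 6 h against 1 h limma called 0 members and 0.0% of all genes at an adjusted p under 0.05, and the smallest adjusted p was 0.485 in both. At an unadjusted p under 0.05, 28 members were higher at 6 h, 10.7% beside 4.99% of all genes, and 6 were lower, 2.3% beside 4.5%. This count depended on the processing. With each array centred on its median 12 were higher and 9 lower, 4.6% and 3.45% of members beside 3.57% and 4.69% of all genes, and without the 2 h arrays 14 were higher, 5.36% beside 4.2%. With the filter at the 70th percentile 10 of 148 were higher, 6.76% beside 6.08%, and with no filter 12 of 328, 3.66% beside 3.21%, so in these settings the members' share lay near that of all genes. The members' median lay above that of all genes in each of the 9 settings of filter, scale, floor and probe set, for example at 0.05 against -0.02 after centring.

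At least 1.2-fold higher at 6 h in both treatments were 14 members, 5.36% beside 4.26% of all genes, and at least 1.2-fold lower were 8, 3.07% beside 3.69%. Zfp54 read 285.7, 364.1 and 498.1 in activin cultures at 1, 2 and 6 h, against 271.2, 351.5 and 436.4 in vehicle cultures. The level at 2 h lay between the others in both treatments. Its difference of 6 h minus 1 h was 0.74 ± 0.10 on the log2 scale (limma adjusted p = 0.485). A dimmer probe set of Zfp54 did not follow, with 227.3, 203.8 and 241.2 in activin cultures, against 230.8, 261.5 and 240.2 in vehicle cultures.

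Zfp937 read 242.7, 355.1 and 421.2 in activin cultures, against 310.7, 397.8 and 452.3 in vehicle cultures, and was thus ordered by time in both (0.67 ± 0.12, limma adjusted p = 0.485). Zfp322a read 433.2, 484.7 and 649.8 in activin cultures, against 395.3, 470.1 and 609.1 in vehicle cultures (0.60 ± 0.10, limma adjusted p = 0.485). Its second probe set read 422.9, 463.1 and 510.8 in activin cultures, against 431.8, 498.4 and 607.2 in vehicle cultures, in the same order of times. Zfp60 read 318.5, 345.5 and 459.8 in activin cultures, against 318.8, 361.2 and 452.8 in vehicle cultures, with almost no gap between treatments. Its dimmer probe set read 163.3, 151.5 and 196.7 in activin cultures, against 224.8, 163.9 and 208.7 in vehicle cultures, with no such order of times.

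Zfp583 read 186.3, 274.1 and 282.9 in activin cultures, against 160.7, 195.0 and 258.3 in vehicle cultures. Zfp82 read 517.0, 567.5 and 703.4 in activin cultures, against 456.3, 632.5 and 706.4 in vehicle cultures. Both were lowest at 1 h and highest at 6 h in each treatment. The differences of 6 h minus 1 h were 0.64 ± 0.13 and 0.54 ± 0.12 (limma adjusted p = 0.485 and 0.49).

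Zfp39 was the opposite case. It read 509.2, 334.1 and 360.7 in activin cultures, against 481.1, 323.6 and 220.3 in vehicle cultures, so it was highest at 1 h in both, and the difference of 6 h minus 1 h was -0.81 ± 0.20 (limma adjusted p = 0.49). At 6 h the activin culture was the higher, with a log2 ratio of 0.71. Zfp386 read 986.9, 819.0 and 666.7 in activin cultures, against 917.0, 711.1 and 706.6 in vehicle cultures (-0.47 ± 0.12, limma adjusted p = 0.49). Zfp408 differed by -0.41 ± 0.11 and Zfp703 by -0.46 ± 0.17, the last mainly through the activin culture at 6 h, which read 735.9 against 1046.1 with vehicle. The dimmer probe set of Zfp703 ran the other way at 6 h, with a ratio of 0.70. Zfp938 was also among the 5 lowest, at -0.42 ± 0.21.

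**Figure D4:**
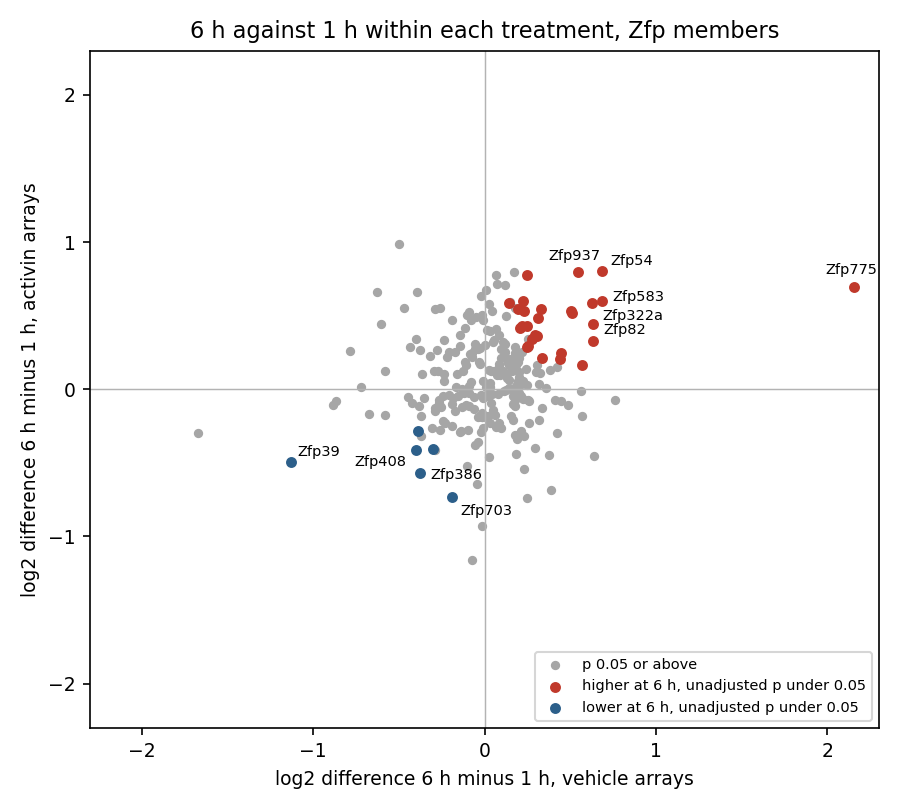
Log2 difference of 6 h minus 1 h in activin cultures (vertical) against vehicle cultures (horizontal), 1 point per Zfp member; colours mark members with an unadjusted limma p under 0.05, higher (red, 28) or lower (blue, 6) at 6 h. Zfp54, Zfp937, Zfp583, Zfp322a and Zfp82 lie to the upper right, and Zfp39 lies to the lower left.

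Activin arrays differed from each other about as widely as activin from vehicle, whereas vehicle arrays mostly differed less. Over all genes the SD of log2 differences was 0.33 to 0.36 between activin arrays, and 0.26 to 0.28 between vehicle arrays. For activin over vehicle it was 0.31 to 0.34. Among members the vehicle pair of 6 h over 1 h was the exception, with an SD of 0.33. At least 1.5-fold higher at 6 h than at 1 h were 17 members with activin, 6.51% beside 5.34% of all genes, and 8 with vehicle, 3.07% beside 2.3%. At least 1.5-fold lower were 6 with activin, 2.3% beside 3.88%, and 9 with vehicle, 3.45% beside 2.06%. Between 2 h and 1 h 9 members were higher and 8 lower with activin, beside 3.63% and 3.71% of all genes, and 3 were higher and 7 lower with vehicle, beside 1.94% and 1.66%. Between 6 h and 2 h 11 were higher and 9 lower with activin, beside 4.12% and 2.75%, and 5 were higher and 6 lower with vehicle, beside 1.7% and 2.0%.

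The members lie unevenly in the genome: 67 of the 261 are on chromosome 7 and 37 on chromosome 17. With at most 5 protein-coding genes allowed between neighbours, 100 members fell into 13 runs of 5 to 21, and 112 had no neighbour of this kind. Members in runs had median log2 ratios of -0.09, -0.12 and -0.05 at 1, 2 and 6 h, and members alone had -0.05, -0.02 and -0.00. The longest run, 21 members on chromosome 17 from Zfp160 to Zfp213 that include Zfp54, Zfp760, Zfp944 and Zfp946, had medians of -0.06, -0.03 and 0.09, and 14 of the 21 were above 0 at 6 h. The run of 11 on chromosome 13, which includes Zfp87 and Zfp712, had -0.30, -0.26 and 0.09. In the run of 10 on chromosome 7 from Zfp84 to Zfp566, 9 of 10 were below 0 at 2 h, with a median of -0.22. Below 0 at 2 h were 62.8% of all members and 55.7% of all genes. Above 0 at 6 h were 123 of the 261 members and 5236 of the 11500 genes. The runs described here were picked from the 13 after their values were seen. Neighbours in a run are similar in sequence and may share signal, and no test was made.

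**Figure D5:**
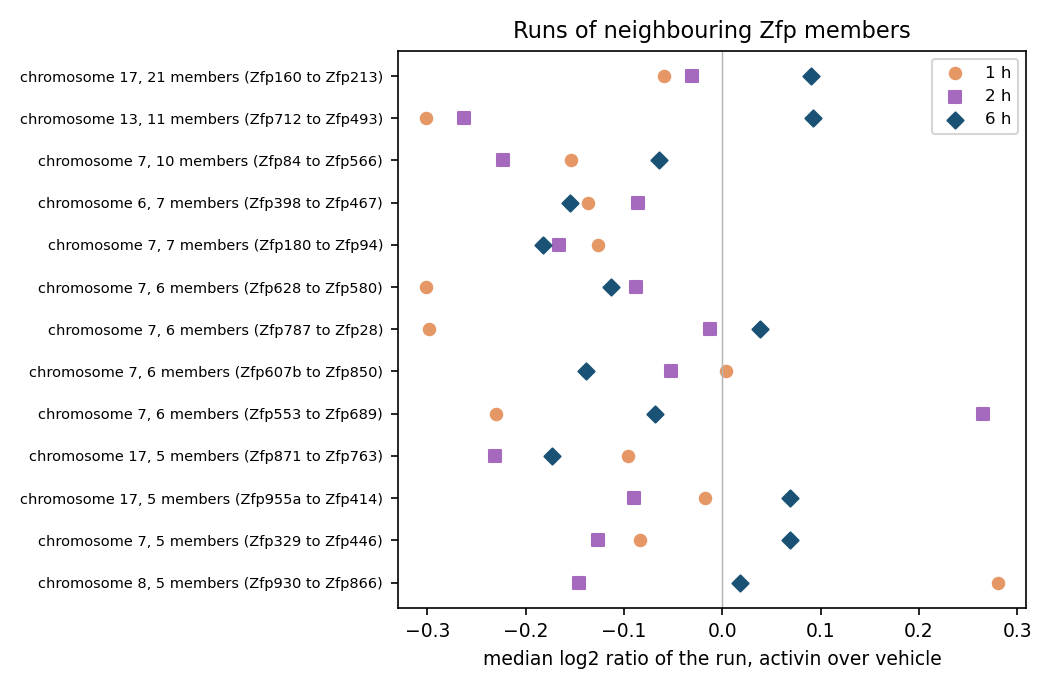
Median log2 ratio of activin over vehicle at 1, 2 and 6 h for each of the 13 runs of neighbouring Zfp members, named by chromosome and by the first and last member. The chromosome 13 run lies at -0.30 and -0.26 at 1 and 2 h and at 0.09 at 6 h.

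Members with a well-studied role stayed near the middle. Of 31 such genes 26 were members; Zfp423, a partner of BMP Smads, its relative Zfp521, the imprint keeper Zfp57 and Zfp217 were under the threshold, and Zfp143 had no probe set of its own. Their median log2 ratios were -0.02, -0.01 and -0.04 at 1, 2 and 6 h. None passed the adjusted limma test, and at an unadjusted p under 0.05 Zfp503 and Zfp809 were higher with activin and Zfp90 lower. These are 2 and 1 of the 26, beside 4.14% and 6.23% of all genes.

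Zfp503, a co-repressor of the nocA family, read 1204.1, 1213.2 and 985.6 in activin cultures, against 975.2, 768.3 and 883.2 in vehicle cultures. All activin signals lay above the vehicle ones, and the mean log2 ratio was 0.37 ± 0.12 (limma adjusted p = 0.454). Its dimmer probe set had 0.16, 0.24 and -0.35. Zfp809, which silences proviruses of murine leukaemia virus type, read 1093.1, 1272.2 and 1051.8 in activin cultures, against 941.0, 891.3 and 935.6 in vehicle cultures, without overlap (0.30 ± 0.11, limma adjusted p = 0.463). Zfp90 read 213.0, 247.4 and 202.6 in activin cultures, against 241.1, 308.9 and 272.3 in vehicle cultures (-0.31 ± 0.09, limma adjusted p = 0.447).

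In their brightest probe sets the rest of these genes had smaller mean ratios. Zfp148, which binds GC-rich promoters, had ratios of 0.33, 0.31 and 0.02, and its relative Zfp281 had 0.05, 0.06 and -0.17. Other probe sets of Zfp148 had between -0.041 and 0.195 at 1 h. A second probe set of Zfp281, of mean signal 764.4 beside 801.6, had 0.425, -0.133 and 0.572, of opposite sign at 2 and 6 h. Zfp451, a SUMO ligase in human, averaged 0.02 ± 0.09, and Zfp91, a ubiquitin ligase, 0.04 ± 0.08. The dimmer probe sets of Zfp451 averaged 0.243, 0.03 and -0.212, and that of Zfp91 averaged 0.144. Zfp598, the ubiquitin ligase that senses collided ribosomes, had -0.42 at 1 h and averaged -0.22 ± 0.10, and Zfp622, an assembly factor of the large ribosomal subunit, averaged 0.11 ± 0.09. Zfp207, which helps load the spindle checkpoint protein Bub3, averaged -0.02 ± 0.09; over both treatments it was 0.33 ± 0.11 higher at 6 h than at 1 h in its brightest probe set (limma adjusted p = 0.497), while other probe sets were lower with activin at 6 h. Zfp568, the repressor of a placental Igf2 promoter, had 0.24, -0.42 and -0.35. Zfp644, a partner of the histone methyltransferase G9a, had 0.42, -0.40 and -0.13.

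The machinery that KRAB proteins recruit was measured in full, 24 of 24 listed genes, with medians of 0.00, 0.01 and -0.05 at 1, 2 and 6 h. None passed the adjusted limma test, and at an unadjusted p under 0.05 the DNA methyltransferase Dnmt3b was higher (0.29 ± 0.09) and the NuRD subunit Mta1 lower (-0.25 ± 0.08). Trim28 itself read 6969.5, 7678.1 and 6546.6 in activin cultures, against 6623.2, 6898.1 and 6880.3 in vehicle cultures, an average of 0.05 ± 0.09. Of 26 listed entries of mRNA deadenylation and decay 23 were measured, with medians of 0.07, 0.01 and 0.00; Btg1 and Cnot10 were higher and Tob2 lower at an unadjusted limma p under 0.05, and none at an adjusted one. The 33 Zbtb genes had medians of 0.07, -0.07 and -0.09, and the 17 Zscan and Zkscan genes had -0.10, -0.20 and -0.08. At an unadjusted limma p under 0.05, 2 Zbtb genes were higher and 4 lower, and 0 and 2 of the Zscan and Zkscan genes, and none passed the adjusted test. Over all genes 4.14% were higher and 6.23% lower at that p. With lists as short as those of this paragraph, no comparison with these shares was made.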

How the data were processed

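RNA of LβT2 cells was measured on 6 Affymetrix arrays, 1 per treatment and time. Linear intensity per probe set was deposited by the authors after GCOS 1.4, per the submitters' processing notes, and was used as the signal. The program's settings and detection calls were not used here. Without its lowest and highest 2% of values, every array averages 500.0. The authors also deposited signed fold changes for part of the genes, scores that are negative for a fall; per the file headers a fold and a signal difference were required.

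Of 45101 probe sets, 64 controls were set aside; 34945 named 1 gene, 932 several and 9160 none in the platform annotation, and only the first were used. Each gene was taken by its brightest probe set, with a threshold of 155 on the mean signal. All 261 members matched the RefSeq table of GRCm38.p6 by Entrez identifier. Of them, 20 had a letter after the number. Log2 signals (pseudocount 0) were fitted with limma 3.58.1 in R 4.3.3, two-sided, with treatment and time as terms (2 residual and 2.93 prior degrees of freedom) and Benjamini-Hochberg adjustment over 11500 genes at 0.05. Nothing in the labels describes repeated cultures, so p-values measure only how far the 3 pairs differ. The fit was tested on simulated data. Protein sequences were not analysed here; promoter letters were searched after values were seen. Figures used matplotlib 3.10.9 and Python 3.11.15.

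The members and gene lists were chosen with earlier results of these data known. The rule for named genes took, among members with all 6 signals at or above 155, the 8 highest and 8 lowest mean ratios and the 5 highest and 5 lowest at each time, for 1 h minus 6 h and for 6 h against 1 h; the 3 highest and 3 lowest at each time among dimmer members, on a floor of 155; and 31 genes of known role. Those the text does not name are covered by its counts. Alternatives were no filter, other filters, quantile normalization, median centring, a pseudocount of 48, a floor of 155, the median of probe sets, no time block, limma-trend, a 2-fold threshold, and leaving out each time.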

Additional observations from a re-analysis of the deposited data

Results flagged for a closer look

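Zfp775 was the only member at least 1.5-fold apart in opposite directions at 1 and 6 h, 0.383% of members, beside 0.383% of all genes. It read 108.4, 248.5 and 175.5 in activin cultures at 1, 2 and 6 h, against 59.9, 145.6 and 267.2 in vehicle cultures, so its log2 ratio at 1 h minus that at 6 h was 1.46. Both signals at 1 h lay under the signal threshold, and the difference was not tested.

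The control probe set for the 5′ end of 18S ribosomal RNA read 12201.8 on the array of activin at 1 h, above every other array; it is not among the genes compared. The 18S probe set of the 3′ end read 894.3 there, against 297.6 with vehicle at 1 h.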

How the results depend on the processing

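No adjusted call was made for any member in any setting run, and the 16 members with the highest and lowest mean ratios among those with no signal under the threshold kept their direction in every setting that holds them (6 of the 16 are not among the genes left by the filter at the 70th percentile). Those 16 were picked for wide mean ratios on the same arrays, so a kept direction was likely from the start and is a description only. Dimmer members such as Zfp688 and Zfp950 were not recomputed singly. Of the recomputed summary values 129 stayed within 1.5 times or within 0.043 log2 units of the reported one, and 23 moved further. The 129 include adjusted calls that stayed at 0. The 0.043 is larger than the size of some medians it judges, such as the -0.01 at 6 h. Counts of members at least 1.5-fold apart moved most. At 1 h (18 reported) it was 44 with no filter, 5 with the filter at the 70th percentile, 10 with a pseudocount of 48 and 2 at a 2-fold threshold. At 2 h (17 reported) no filter gave 45, the filter at the 70th percentile 7, and the 2-fold threshold 0. At 6 h (18 reported) these were 48, 5 and 4. With no filter 4.88% were higher and 8.84% lower at 2 h, beside 8.7% and 10.8% of all genes. At 6 h the shares were 8.23% and 6.4% beside 11.7% and 8.82%. With the filter at the 70th percentile 2 h gave 3.38% and 1.35% beside 1.97% and 0.879%. At 6 h it gave 2.7% and 0.676% beside 2.17% and 1.82%. With median centring the members' median log2 ratio was -0.122 at 1 h and 0.008 at 2 h. At an unadjusted p under 0.05, members higher at 6 h than at 1 h (28 reported) were 10 with the filter at the 70th percentile, 18 with limma-trend, 12 with median centring and 12 with no filter, and 14 without the 2 h arrays. As shares these were 6.76%, 6.9%, 4.6%, 3.66% and 5.36%, beside 6.08%, 5.61%, 3.57%, 3.21% and 4.2% of all genes, whereas the reported 10.7% stands beside 4.99%. All 12 of the centred fit were among the 28, and both fits used the same arrays. Members higher with activin (14 reported) were 9 with the filter at the 70th percentile (6.08% beside 5.01%) and 8 with no filter (2.44% beside 3.34%), and 8 to 16 when a time was left out. Members lower with activin (22 reported) were 13 with no filter (3.96% beside 3.13%) and 8 to 20 when a time was left out. The counts at unadjusted p and the medians over time were added after seeing the data. The causes of these shifts were not tested, apart from the smaller or larger number of genes that a filter leaves. The labels give no replicate numbers, and the reported fit pairs the arrays by time. Without that block 11 members were higher and 18 lower with activin, 4.21% and 6.9% beside 3.56% and 5.22% of all genes. Signals near the threshold limit the ratios of the 29 dimmer members.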
